A study of Homo sapiens with 4 samples.

Results

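RGS4 and 9 other regulator of G protein signalling genes (RGS2, RGS3, RGS10, RGS12, RGS14, RGS16, RGS17, RGS19 and RGS20) are described here by their mRNA levels in the human colorectal cancer cell lines HCT116 and RKO, which are long established. They were taken by gene symbol from the deposited expression tables, where all 10 were found among 60612 genes. Each line was sequenced in a form wildtype for AVEN (WT) and in a form that overexpresses it (OE), so that there are 4 libraries of poly(A)-selected mRNA in 4 groups, 1 library each. The vector, the number of clones and the controls' own treatment are not stated in the labels. RGS4 was put at the head of the set because its level differed between the RKO libraries, and the set was drawn up with the values of these libraries known. The levels of the 10 genes and their differences are therefore given as a description, without a test.

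A G protein coupled receptor activates a G protein by making its alpha subunit exchange GDP for GTP, and the signal lasts until the alpha subunit hydrolyses the GTP. RGS proteins are GTPase-activating proteins that bind the active alpha subunit and speed this hydrolysis, so that they shorten signalling from the receptor. The family is divided by sequence: the R4 subfamily holds mostly small proteins that act on Gi and Gq classes (here RGS2, RGS3, RGS4 and RGS16), the R12 subfamily holds RGS10, RGS12 and RGS14, and the RZ subfamily holds RGS17, RGS19 and RGS20. RGS4 and RGS16 proteins, and that of RGS5, begin with a cysteine that marks them for degradation by the arginine N-degron pathway, a step that mRNA levels do not show.

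RGS4 (ENSG00000117152) lies on the plus strand of chromosome 1, from 163068775 to 163076802 (GRCh38, GENCODE 29), where 10 transcripts between 540 and 3774 nucleotides long are annotated. RGS16 (ENSG00000143333, minus strand, 182598623 to 182604408) and RGS2 (ENSG00000116741, plus strand, 192809039 to 192812283) lie on the same chromosome. The 250 bases before an annotated start of each are shown because these 3 R4 genes share a chromosome and stood differently in RKO. In OE, RGS4 and RGS2 had lower and RGS16 higher values, with the RGS2 difference within the counting error described below. The sequences are RefSeq's on GRCh38.p14, 5′ to 3′ on the strand of the gene, at chr1:163069111-163069360 (plus strand) for RGS4, chr1:182604390-182604639 (minus strand) for RGS16 and chr1:192808789-192809038 (plus strand) for RGS2. Capitals mark TATAAA, the core of the TATA box, which was searched on both strands.
RGS4: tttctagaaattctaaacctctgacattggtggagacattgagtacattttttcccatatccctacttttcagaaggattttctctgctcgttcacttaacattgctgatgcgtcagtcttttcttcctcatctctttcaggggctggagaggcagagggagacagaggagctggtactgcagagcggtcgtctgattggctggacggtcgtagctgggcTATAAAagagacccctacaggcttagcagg
RGS16: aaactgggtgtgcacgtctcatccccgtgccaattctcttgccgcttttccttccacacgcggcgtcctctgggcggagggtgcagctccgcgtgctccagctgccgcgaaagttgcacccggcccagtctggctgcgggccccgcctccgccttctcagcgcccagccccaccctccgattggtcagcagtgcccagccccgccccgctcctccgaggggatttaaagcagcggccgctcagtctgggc
RGS2: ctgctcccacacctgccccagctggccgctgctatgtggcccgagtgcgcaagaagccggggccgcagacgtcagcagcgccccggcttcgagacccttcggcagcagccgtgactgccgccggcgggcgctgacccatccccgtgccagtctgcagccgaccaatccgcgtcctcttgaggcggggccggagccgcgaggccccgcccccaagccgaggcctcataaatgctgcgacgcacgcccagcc
In the RGS4 window TATAAA began 30 bases before the start. TATAAA was held by 10.7% of the 35116 RefSeq windows of this length, and these letters are not in the RGS16 or RGS2 window shown. Only these exact letters were searched, so TTTAAA toward the end of the RGS16 window and CATAAA toward that of RGS2 were not counted. A window of RGS3, the remaining R4 gene, on chromosome 9, also held TATAAA, 166 bases before its start. The RGS4 window held 6 CpG dinucleotides and was 47.6% GC, against 22 and 68.4% for RGS16 and 28 and 72.8% for RGS2. Over all windows the medians were 11 CpG and 58% GC. RefSeq gave RGS4 4 such windows, which held 1 to 6 CpG, and the one holding TATAAA is shown. The expression values are per gene, so which of these starts the cells used was not analysed here.

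Levels are the authors' deposited FPKM, a fragment count scaled to transcript length and library depth, which allows genes to be compared per length. A separate table was deposited for each line, and the authors listed genes without signal at a floor of 0.0001. A gene is called measured in a line where its WT and OE values average 1 FPKM or more. The files carry no counts. From the smallest values, 1 FPKM on a transcript of 1 kilobase was estimated at 18.6 to 20.8 fragments over the 4 libraries. Fragment numbers below are such estimates. Intervals in brackets are 95% exact counting intervals computed from them, covering counting error only. The share of summed FPKM from mitochondrially encoded genes was 44.7% and 45.6% in HCT116 WT and OE, and 32.8% and 30.3% in RKO. AVEN, the overexpressed gene, stood 1.94-fold higher in OE than in WT in HCT116 (1.16 to 3.41) and 3.32-fold higher in RKO (2.04 to 5.80). These ratios rest on about 22 and 48 fragments in WT and OE of HCT116 and on 21 and 68 in RKO. The authors' deposited table marked AVEN as significant in RKO and not in HCT116. Among 9 markers of colorectal epithelium, CDX1 and LGR5 were at the floor in all 4 libraries. In RKO, KRT20 and VIL1 were also at the floor and CDH1 stood at 0.00800 and 0.00834 FPKM, against 8.25 and 17.5 in HCT116, so the label of an epithelial line rests there on EPCAM (3.08 and 2.02), KRT8, KRT18 and CDX2. Of 13 markers of fibroblasts, endothelium and blood cells, COL1A1 in HCT116 (2.59 and 2.60 FPKM) was the one that reached 1 FPKM in any library. In bulk RNA, fewer cells expressing a gene and less of its RNA per cell cannot be told apart.

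RGS4 was the most abundant of the 10 genes in RKO WT and among the least abundant in HCT116. It stood at 79.6 and 10.5 FPKM in WT and OE of RKO and at 0.128 and 0.218 in HCT116. These rest on about 2745, 347, 4 and 8 fragments. The RKO libraries were thus the high ones, with OE far below WT, while both HCT116 libraries held a handful of fragments. RGS4 protein acts on Gi and Gq alpha subunits and is best known from the brain, where its mRNA is abundant.

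**Figure D1:**
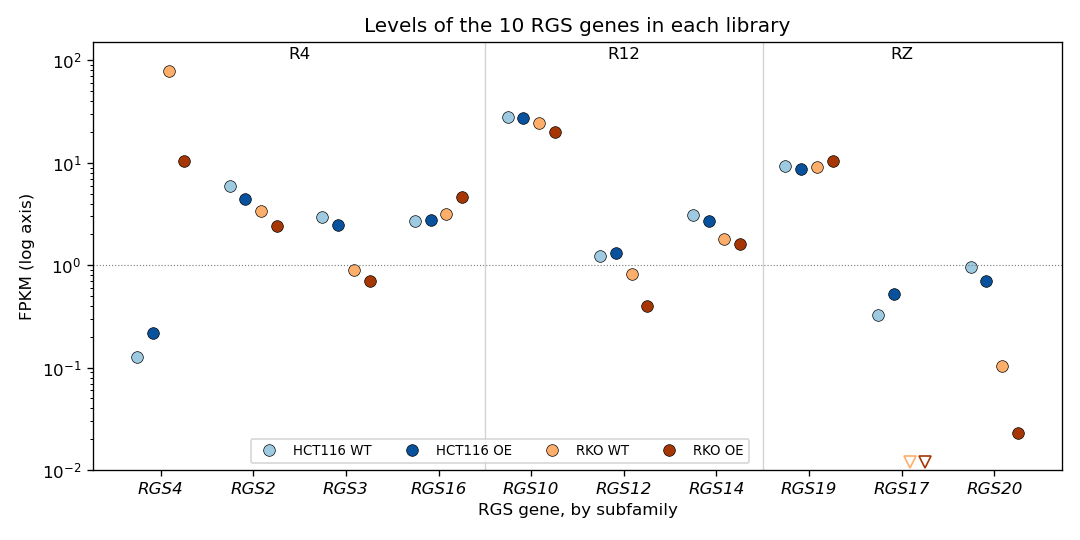
FPKM of the 10 RGS genes in the 4 libraries, on a log axis, 1 point per library and genes grouped by subfamily; open triangles at the bottom mark values at the floor of 0.0001 and the dotted line marks 1 FPKM. RGS4 spans from 0.128 in HCT116 WT to 79.6 in RKO WT, while the 4 points of RGS10 lie between 20.1 and 28.0.

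In RKO, RGS4 was 7.59-fold lower in OE than in WT (6.79 to 8.51), a difference of -2.81 on the log2(FPKM + 1) scale. It was the 10th lowest difference of the 11007 genes measured in the line. By level, RGS4 ranked 446 of all genes in RKO WT and 3421 in RKO OE. The authors' deposited table gave it p = 6.27e-05 and q = 0.0263 and marked it as significant in RKO, a value from the libraries that chose the gene. In HCT116 the difference was 0.11 on the same scale and the fold 1.71 (0.481 to 8.15), an interval that at 4 and 8 fragments includes 1. The GC content of the RGS4 transcripts was 42.7%, lower than in all but 16.6% of 11494 genes, whose median was 50.8%. With the differences in RKO corrected for GC content and transcript length, the log2 difference of RGS4 was -2.46.

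Between the lines, RGS4 in RKO was 624-fold above HCT116 in WT (244 to 2293) and 48.0-fold in OE (23.0 to 107). The tables of the lines were normalized separately, and the low side of each ratio rests on 4 and 8 fragments. The FPKM of HCT116 lay below those of RKO in both genotypes. Rescaled so that all libraries had the same summed FPKM without mitochondrial genes, RGS4 stood at 0.134 and 0.236 in WT and OE of HCT116 and at 76.6 and 9.71 in those of RKO.

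The other R4 genes stood far below RGS4 in RKO WT and above it in HCT116. RGS2, a small protein that prefers Gq, stood at 5.93 and 4.43 FPKM in WT and OE of HCT116 and at 3.39 and 2.44 in RKO. Both OE libraries lay below their WT library, and both RKO libraries below both of HCT116. The fold of OE over WT was 0.747 in HCT116 (0.541 to 1.03) and 0.721 in RKO (0.470 to 1.11), and both intervals include 1. The log2 difference was -0.35 in each line.

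RGS16, another regulator of Gi and Gq, stood at 2.71 and 2.74 FPKM in HCT116 WT and OE and at 3.16 and 4.68 in RKO WT and OE. RKO OE was the high library and the other 3 lay close together. In RKO the fold was 1.48 (1.20 to 1.83), from about 157 and 223 fragments, and the log2 difference was 0.45, the highest of the measured RGS genes there. RGS16 was thus above WT in the RKO library in which RGS4 was below it. In HCT116 the fold was 1.01 (0.790 to 1.31).

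RGS3, which has long and short isoforms, stood at 2.94 and 2.48 FPKM in HCT116 WT and OE and at 0.903 and 0.694 in RKO. The HCT116 libraries were the high ones, 3.26-fold above RKO in WT (2.18 to 5.0) and 3.57-fold in OE (2.27 to 5.89). Within a line the OE value lay below WT by less than counting error, at a fold of 0.841 in HCT116 (0.620 to 1.12) and 0.768 in RKO (0.429 to 1.32). Summed over the R4 genes, the FPKM was 11.7 and 9.86 in WT and OE of HCT116 and 87.1 and 18.3 in RKO. Without RGS4 it was 11.6, 9.64, 7.45 and 7.81 in the same order, so the RKO libraries lay below HCT116 once RGS4 was left out.

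The R12 genes were led by RGS10, a small protein that acts on Gi alpha subunits. It stood at 28.0 and 27.6 FPKM in WT and OE of HCT116 and at 24.3 and 20.1 in RKO, and it was the most abundant of the 10 genes in all libraries but RKO WT. RKO OE was the lowest of its 4 values. The fold of OE over WT was 0.986 in HCT116 (0.844 to 1.15) and 0.826 in RKO (0.693 to 0.983), the latter from about 298 and 236 fragments.

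RGS12 and RGS14 are larger proteins that also carry a GoLoco motif, which binds inactive Gi alpha subunits. RGS14 stood at 3.10 and 2.70 FPKM in HCT116 WT and OE and at 1.82 and 1.63 in RKO, and its intervals for OE over WT include 1 in both lines. Each RKO value lay below both HCT116 values. RGS12 stood at 1.24 and 1.33 in HCT116 and at 0.826 and 0.402 in RKO, where the values rest on 29 and 14 fragments. RKO OE was again the lowest library, at a fold of 0.487 over RKO WT (0.246 to 0.983), an interval that ends just short of 1.

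The RZ genes differed between the lines more than within them, apart from RGS19. RGS19, also known as GAIP and found as a partner of a Gi alpha subunit, stood at 9.40 and 8.66 FPKM in WT and OE of HCT116 and at 9.04 and 10.4 in RKO. These values lay close together, and the folds of OE over WT, 0.921 in HCT116 (0.748 to 1.14) and 1.15 in RKO (0.942 to 1.41), have intervals that include 1. The RKO log2 difference of RGS19 on the log2(FPKM + 1) scale was 0.18 without correction and -0.01 after correction for GC content and length.

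RGS17 and RGS20, which act on the Gz class among others, were at or under 1 FPKM in every library. RGS17 stood at 0.326 and 0.520 FPKM in HCT116 WT and OE, from 29 and 51 fragments, and was listed at the floor in both RKO libraries. Against the 3 fragments that a count of 0 allows in each RKO library, RGS17 was at least 10.4-fold higher in HCT116 in WT and at least 16.0-fold in OE, taking the HCT116 values as they stand. With the counting error of both lines the interval of the ratio starts at 8.10 in WT and 12.6 in OE. RGS20 stood at 0.968 and 0.699 FPKM in HCT116 and at 0.105 and 0.0228 in RKO, where the values rest on 3 fragments and 1. For RGS20 the HCT116 libraries were 9.25-fold above RKO in WT (2.42 to 42.1), and at this depth no difference between WT and OE was detectable in either line.

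**Figure D2:**
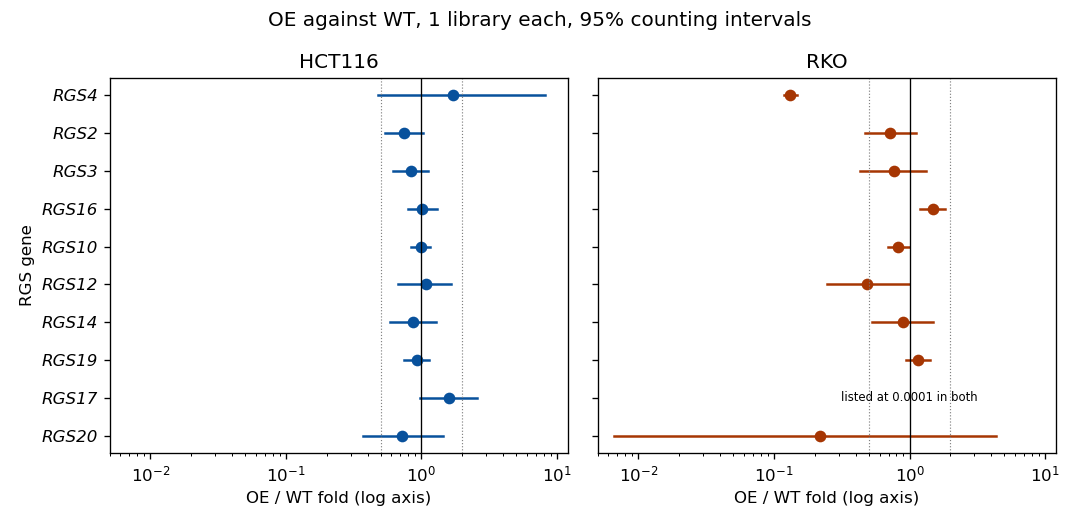
Fold of OE over WT for each RGS gene in HCT116 (left) and RKO (right), on a log axis; points are ratios of FPKM from 1 library each and bars are 95% counting intervals. The dotted lines mark 2-fold, RGS17 has no ratio in RKO, and RGS4 in RKO lies apart at 0.132 with an interval of 0.117 to 0.147.

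Within the lines, RGS4 in RKO was the one measured RGS gene past a 2-fold difference. Of those not measured in RKO, RGS12 (0.487) and RGS20 (0.218, from 3 fragments and 1) had FPKM ratios past 2-fold. On the log2(FPKM + 1) scale they stood at -0.38 and -0.11. In HCT116, 7 of the 10 genes were measured (all but RGS4, RGS17 and RGS20), and 0 of them reached 2-fold, taken on the log2(FPKM + 1) scale, where 2.05% of all 11333 measured genes did. In RKO, 6 of the 10 were measured (all but RGS3, RGS12, RGS17 and RGS20), and RGS4 alone was past 2-fold, where 3.25% of all 11007 genes were and 1.95% were so in the lower direction. The median log2 difference of the measured RGS genes was -0.11 in HCT116 and -0.18 in RKO, beside medians of 0.01 and -0.09 over all genes. Since these differences chose the set, nothing is read from the counts. In the authors' deposited table, which marked 0.419% of genes in HCT116 and 0.563% in RKO, RGS4 in RKO carried the one mark among the 10. As the AVEN values show, these shares are not shares of genes with a low q-value.

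**Figure D3:**
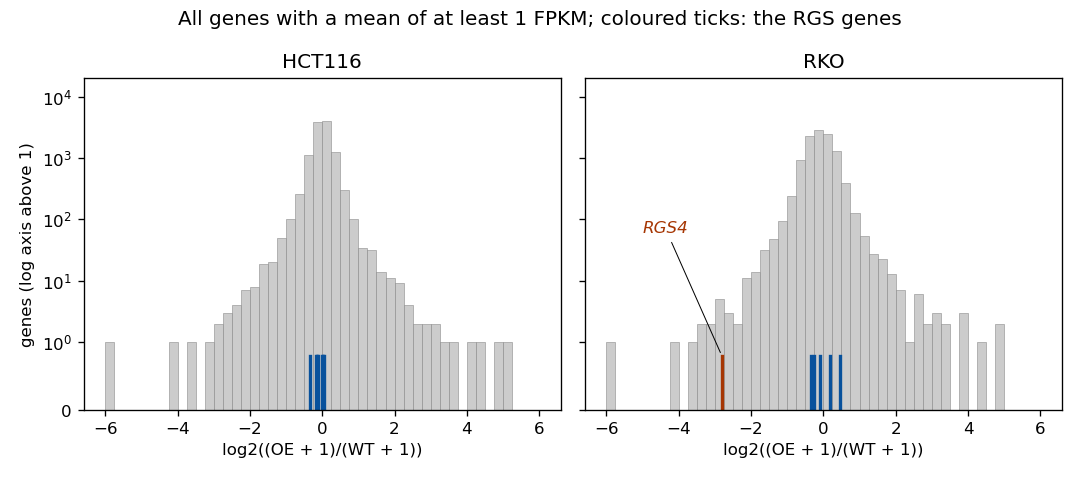
Number of genes (log axis above 1) by log2((OE + 1)/(WT + 1)) in HCT116 and RKO, for all measured genes; values beyond 6 in size are drawn in the last bin. Coloured ticks mark the 7 measured RGS genes in HCT116, between -0.35 and 0.06, and the 6 in RKO, where RGS4 stands at -2.81 and the others between -0.35 and 0.45.

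The sum of the 10 genes shows how far RGS4 set the family's level in RKO. It was 54.7 and 51.4 FPKM in WT and OE of HCT116 and 123 and 50.8 in RKO. RGS4 held 0.233%, 0.425%, 64.7% and 20.7% of these sums in the same order. RKO WT was the high library, and without RGS4 the sums were 54.6, 51.1, 43.5 and 40.3, with both RKO libraries below both of HCT116. Setting the separately normalized tables side by side, RGS4 and RGS16 had higher values in RKO than in HCT116 in WT, and RGS4, RGS16 and RGS19 in OE. The other genes were lower in RKO. For RGS10, RGS12, RGS16 and RGS19 in WT the intervals of the ratio between lines include 1.

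Of 11 further RGS genes outside the set, 8 were at the floor in both HCT116 libraries and 7 in both RKO libraries. RGS9, best known from the retina and striatum, reached a mean of 1 FPKM in HCT116 (1.26 in WT and 1.55 in OE) and stood at 0.405 and 0.259 in RKO. RGS11, of the same subfamily, stood at 2.78 and 2.69 FPKM in RKO and at the floor in HCT116. RGS11 overlaps exons of FAM234A on the other strand, and no source used here says whether counting used strand. RGS5, the nearest coding neighbour of RGS4, 34.3 kb after it, is carried by the tables under a further identifier as well. RGS5 stood at 0.129 and 0.351 FPKM in WT and OE of HCT116 and at 0.176 and 0.0454 in RKO. Under the further identifier, which shares 534 exon bases with it, the values were 0.103 and 0.108 in HCT116 and 0.397 and 0.119 in RKO.

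The neighbours of RGS4 on chromosome 1 did not share its level. On the side before it, DDR2 (a collagen receptor kinase) and CCDC190 stayed under 0.2 FPKM in all 4 libraries. HSD17B7, an enzyme of cholesterol synthesis, stood at 2.70 and 2.84 FPKM in WT and OE of HCT116 and at 2.0 and 1.65 in RKO. After RGS5 came NUF2, a kinetochore protein 190 kb away, at 4.41, 4.60, 5.87 and 2.78 in the same order. RKO WT was the highest library for NUF2, by little, and its log2 difference in RKO was -0.86. None of these neighbours approached the 79.6 FPKM of RGS4 in RKO WT.

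The genes whose profile over the 4 libraries was nearest to that of RGS4 were all high in RKO WT, lower in RKO OE and near 0 or low in HCT116. Likeness was measured as the Euclidean distance between profiles of log2(FPKM + 1), each centred on its own mean, over the 5570 coding genes that average 5 FPKM or more. MAP1LC3C, of the LC3 family of autophagy proteins, was nearest at a distance of 0.939, with 130 FPKM in RKO WT, 18.6 in RKO OE and under 0.04 in HCT116. CALB2 (calretinin, a calcium-binding protein) followed at 1.18, with 2.61 and 2.42 FPKM in WT and OE of HCT116 and 88.8 and 20.9 in RKO. Then came the growth factor gene HGF at 1.32 (24.5 and 10.2 in RKO), the interferon-inducible IFI16 at 1.51 (37.5 and 22.8) and IL13RA2, a receptor chain for interleukin-13, at 1.53 (19.4 and 3.47). With a pseudocount of 0.1 in place of 1, IL13RA2 and HGF were again among the nearest 5 genes and the other 3 were not. With 4 libraries from separately normalized tables, the line difference sets most of each profile.

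**Figure D4:**
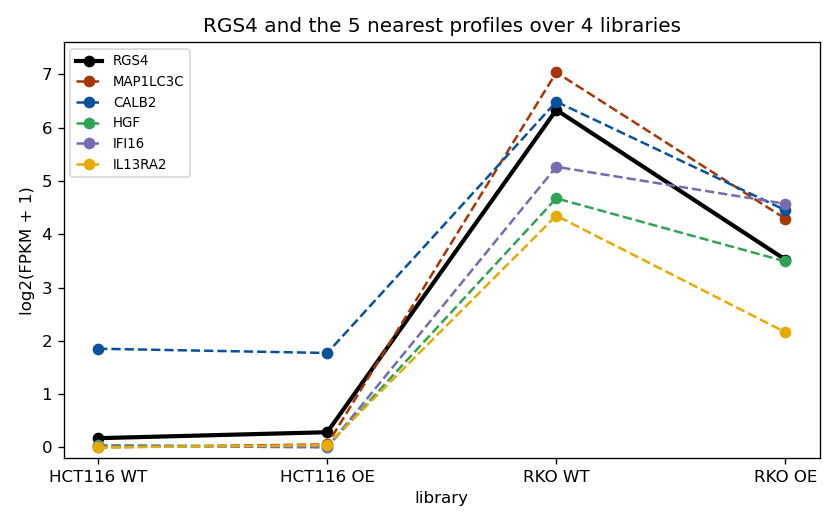
log2(FPKM + 1) of RGS4 (black) and of the 5 coding genes with the nearest centred profiles, in the 4 libraries; each point is 1 library and lines only join the points of a gene. All 6 genes are highest in RKO WT, and RGS4, MAP1LC3C and IL13RA2 show the steepest steps down to RKO OE.

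Around the RGS proteins, 133 other genes of G protein signalling were taken from 9 lists (receptors, G protein subunits, their exchange factors, other proteins with an RGS homology domain, effectors, arrestins, the remaining RGS genes and the arginine N-degron pathway). The lists were drawn from knowledge of the pathway, with earlier results of these data known. None of the 70 measured in HCT116 and none of the 60 measured in RKO reached 2-fold on the log2(FPKM + 1) scale, which makes the differences of low genes smaller, beside 2.05% and 3.25% of all genes. Their median log2 difference was 0.02 in HCT116 and -0.03 in RKO. Across both lines, limma on log2(FPKM + 1) with line as a block passed 0 of the 69 pathway genes tested, and 0 had an unadjusted p under 0.05, against 3.51% of all 11525 genes. That fit called 14 genes in all (0.121%) and treats the lines as if they were replicates, with 1 residual degree of freedom. The labels do not say that the libraries came from separate cultures, and its p-values measure only the spread between these samples. That spread is moderated, with the variance of each gene drawn toward a prior estimated from all genes tested. For RGS4 the same fit gave a log2 difference of -1.35 with a moderated standard error of 0.47, an average of 0.11 in HCT116 and -2.81 in RKO. The prior outweighs the 1 residual degree of freedom. This standard error is therefore smaller than the RGS4 values of the lines alone would give, and is not a measure of their precision.

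Among receptors, 14 of 38 were measured in HCT116 (7 above 0 and 7 below) and 8 in RKO (5 above and 3 below). NTSR1, the neurotensin receptor, stood at 55.9 and 45.7 FPKM in WT and OE of HCT116 and at 7.90 and 9.64 in RKO. F2R, the thrombin receptor PAR1, stood at 5.99 and 7.96 in HCT116 and at 2.10 and 0.625 in RKO. RKO OE was its low library, at a log2 difference of -0.93 and a fold of 0.298 (0.183 to 0.459). Its ratio of FPKM was thus past 2-fold, and its difference on the log2(FPKM + 1) scale short of it. Its relative F2RL1, the receptor PAR2, stood the other way in RKO, at 0.997 in WT and 1.97 in OE, and at 42.7 and 51.5 in HCT116. LPAR3, a receptor for lysophosphatidic acid, stood at 6.88 and 10.4 in HCT116.

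Of the G alpha subunits, on which RGS proteins act, 10 of 16 were measured in each line, with 7 above 0 in HCT116 and 5 in RKO. GNAI2, the Gi subunit with the highest levels here, stood at 36.3 and 42.7 FPKM in HCT116 WT and OE and at 40.7 and 45.7 in RKO. GNAQ, the Gq subunit, stood at 3.34 and 3.88 in HCT116 and at 5.47 and 3.02 in RKO. RKO OE was lower than RKO WT for GNAQ, at a log2 difference of -0.69 on the log2(FPKM + 1) scale without correction and -0.34 after correction for GC content and length. GNA11, its close relative, stood at 17.5 and 14.9 in HCT116 and at 12.8 and 16.7 in RKO, so RKO OE was the higher there. GNAZ, the Gz subunit bound by RZ proteins, stood at 4.84 and 7.31 in HCT116 and at 1.84 and 1.69 in RKO. Of 17 beta and gamma subunits, 9 and 8 were measured, with median log2 differences of -0.03 and 0.00 in HCT116 and RKO.

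Among the other proteins with an RGS homology domain, which include G protein coupled receptor kinases and exchange factors for RhoA, 12 of 16 were measured in HCT116 and 10 in RKO, with 8 and 6 above 0. The kinase gene GRK6 stood at 27.2 and 19.9 FPKM in HCT116 and at 14.0 and 18.9 in RKO, and it overlaps exons of F12 on the other strand. ARHGEF12, a RhoA exchange factor, stood at 2.16 and 3.21 in HCT116 and at 4.02 and 2.51 in RKO, where its log2 difference was -0.52, and -0.12 after correction for GC content and length. AXIN1, a scaffold of beta-catenin degradation, stood at 8.10 and 11.6 in RKO, and the sorting nexin gene SNX25 at 5.13 and 2.51. For SNX25 the RKO log2 difference was -0.80, and -0.43 after correction for GC content and length. RIC8B, a chaperone of alpha subunits, stood at 1.10 and 1.99 in HCT116 and at 1.90 and 0.865 in RKO. Its list of exchange factors and GoLoco proteins had 7 measured genes in HCT116 and 6 in RKO, with medians of 0.03 and -0.07. Of the effectors, 5 of 13 adenylyl cyclase and phospholipase C beta genes were measured in each line, with medians of -0.06 in HCT116 and -0.07 in RKO. In RKO they went both ways, with ADCY3 at a log2 difference of 0.42, ADCY6 at 0.39, ADCY7 at -0.36 and PLCB3 at -0.16. Each of these had a counting interval that excludes 1. On the other strand, ADCY3 shares 1488 exon bases with CENPO, and ADCY7 shares 3593 with BRD7. In RKO WT and OE, CENPO stood at 6.02 and 4.08 FPKM and BRD7 at 11.7 and 9.32. The arrestin gene ARRB2 stood at 34.4 and 27.0 FPKM in RKO WT and OE and ARRB1 at 4.56 and 5.42.

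All 10 genes of the arginine N-degron pathway, through which RGS4, RGS5 and RGS16 proteins are degraded, were measured in both lines. In HCT116, 5 were above 0 and 5 below, with a median log2 difference of 0.00. In RKO, 2 were above 0 and 8 below, with a median of -0.35 beside -0.09 over all genes, and 0 of 10 passed the limma test across lines. METAP2, a methionine aminopeptidase that exposes the cysteine, stood at 20.3 FPKM in RKO WT and 11.4 in RKO OE (a log2 difference of -0.79, and -0.45 after that correction for GC content and length), and the ubiquitin ligase gene UBR1 at 2.91 and 1.77. The median in RKO was 0.00, with 5 genes above 0 and 5 below, after correction for GC content and length.

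**Figure D5:**
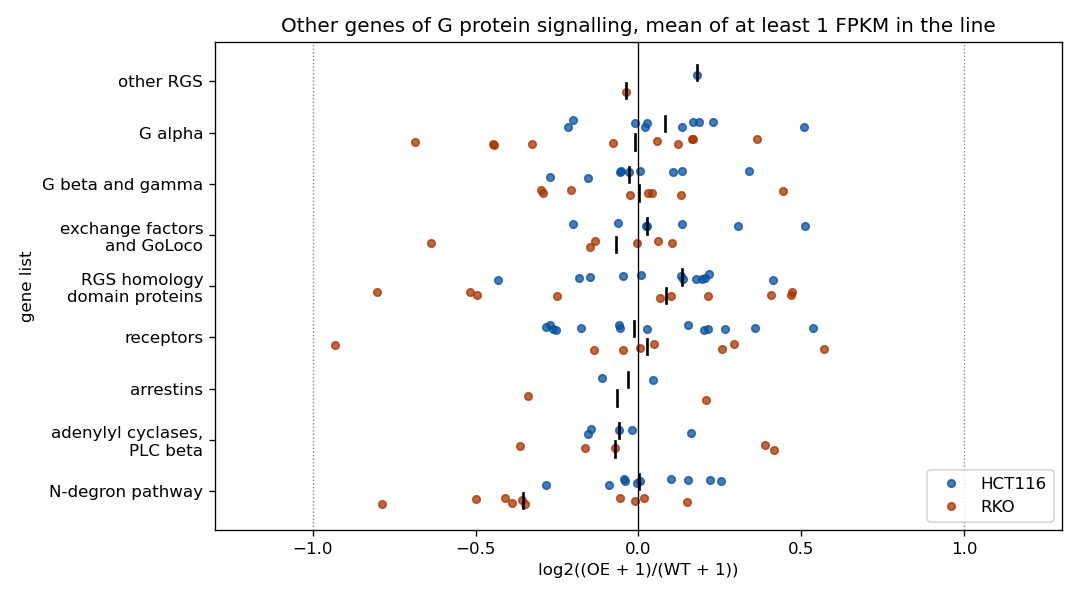
log2((OE + 1)/(WT + 1)) of the other genes of G protein signalling measured in the line, by list, in HCT116 (blue) and RKO (brown); each point is a gene, black bars are list medians and dotted lines mark 2-fold. No point reaches a dotted line, and the RKO median of the N-degron list is -0.35.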

How the data were processed

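RNA from HCT116 and RKO cells was selected for poly(A), and paired ends were read, per the labels' protocols. Groups came from the sample titles, 1 library each. HISAT2 2.0, StringTie 1.3.0, Bowtie 0.12.2 and the mouse build mm8 are listed in the submitters' processing notes. Since the identifiers are human, the alignment build is not settled here. The deposited tables, 1 per line, give the authors' FPKM per gene, and their fold (ratio), log2 fold, p-value and q-value, which compare the libraries of a line. No source used here states how fragments in overlapping genes were assigned or whether strand was kept. No RGS gene of the set shares 50 or more exon bases with another gene, on either strand.

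The genes and lists were chosen with earlier results of these data known. Coordinates, lengths and GC content came from GENCODE 29, which holds 58394 of the 60612 identifiers, and promoter windows from RefSeq, which gave windows for 9 of the 10 RGS genes. All 165 listed symbols were matched. FPKM values carry no counts. The value of 1 fragment was read from genes with a single exon, 400 nucleotides or longer. Among values of up to 5 fragments, 43.2% to 44.6% lay near a multiple of it or its midpoint, so it is an estimate. A count of 0 allows 3 fragments, or 0.145 to 0.161 FPKM on 1 kilobase. Counting intervals are exact conditional (Clopper-Pearson) intervals at 95%, with the mean transcript length of a gene. They take fragments as independent, though these carry no molecular identifiers.

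Differences are log2((OE + 1)/(WT + 1)), a scale on which the changes of low genes appear too small. Genes averaging 1 FPKM or more in a line and differing 2-fold were counted without a p-value. The fit over all 4 libraries used limma 3.58.1 (R 4.3.3) on log2(FPKM + 1), with terms for genotype and line, and a prior with a trend. It was two-sided, adjusted by Benjamini-Hochberg at 0.05 over the genes that average 1 FPKM or more, and tested on simulated data. Named genes are AVEN, the RGS genes, the 2 highest and 2 lowest measured genes of each list per line (some are given only in counts), each listed gene past 2-fold, the 5 nearest profiles to RGS4 and 3 coding neighbours on each side. A gene that 1 line selected is given in both where this helps, and some genes under the rule are not reported here. The alternatives were a pseudocount of 0.1, quantile normalization, a smooth correction for GC content and length (mgcv 1.9.3), rescaling without mitochondrial genes, other filters on low values, no trend, no line term and the longest transcript length. Python 3.11.15, scipy 1.17.1 and matplotlib 3.10.9 were used.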

Additional observations from a re-analysis of the deposited data

Results flagged for a closer look

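In 10 genes of the lists the libraries of the lines moved in opposite directions, each with a counting interval that excludes 1 in both lines. The value given is the log2 difference of OE against WT in RKO minus that in HCT116. With 1 library per group the difference between lines was not tested. It was -1.29 for the thrombin receptor gene F2R, -1.15 for the chaperone gene RIC8B, -0.93 for the exchange factor gene ARHGEF12 and -0.54 for the epithelial marker EPCAM, all lower in OE in RKO and higher in OE in HCT116. The log2 differences of ARHGEF12, corrected for GC content and length, were -0.12 in RKO and 0.31 in HCT116. It was 0.98 for KRT18, 0.84 for GRK6, 0.69 for KRT8 and 0.58 for the Gq-class subunit GNA11. For the neurotensin receptor gene NTSR1 it was 0.54 and for the gamma subunit gene GNG5 0.40. These genes, from KRT18 to GNG5, were all higher in OE in RKO and lower in OE in HCT116. On opposite strands, KRT8 and KRT18 share 525 exon bases, and GRK6 shares 399 with F12. F12 stood at 4.27 and 3.39 FPKM in WT and OE of HCT116 and at 2.76 and 5.85 in RKO. Whether counting used strand is not stated, so how far such genes count separately was not tested.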

How the results depend on the processing

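The counts of RGS genes past 2-fold (0 in HCT116, 1 in RKO) were the same under every setting run, and RGS4 in RKO ranged from -2.46 (GC content and length corrected) to -2.91 (pseudocount of 0.1) on the log2 scale. Genes past 2-fold numbered 232 in HCT116 and 358 in RKO. They numbered 419 and 629 with a pseudocount of 0.1, and 97 and 159 among genes averaging 5 FPKM or more. In RKO the split was 143 higher and 215 lower without a further scaling, 160 and 163 after quantile normalization and 149 and 166 after GC content and length correction. With a pseudocount of 0.1, 3 pathway genes passed 2-fold in RKO (SNX25, RIC8B and F2R), against 0. Of the 5 nearest profiles to RGS4, 2 were shared under that pseudocount. The 14 limma calls became 7 with a pseudocount of 0.1, 7 after rescaling without mitochondrial genes, 3 among genes averaging 5 FPKM or more, 1 after quantile normalization, 1 after GC content and length correction, 0 with no filter and 0 without the line term, which served as the replicate block. The cause was not tested. No pathway gene passed limma under any of these settings. Small differences changed sign under a scaling for RGS10, RGS12 and RGS16 in HCT116 and for RGS14, RGS19 and RGS20 in RKO, all within 0.19 of 0 without it on the log2(FPKM + 1) scale. Among the named pathway genes in RKO, GNG12 was at -0.30 without correction and 0.10 after GC content and length correction.

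No paired analysis was possible because the labels carry no replicate numbers, other than the pairing of WT with OE within a line that the line term makes. Adding the fragments of genes that share exons gave no value, since no RGS gene of the set has such a partner. The depth limits RGS4 in HCT116, RGS12 in RKO, RGS17 and RGS20, which rest on few fragments, and differences within a line have no replicate check.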
